A study of Homo sapiens with 12 samples.

Results

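In KURAMOCHI ovarian cancer cells, 95 genes stood higher after a low dose of the transcriptional kinase inhibitor THZ1 while most transcripts stood lower, on the deposited spike-in scale. THZ1 is a covalent inhibitor of CDK7, CDK12 and CDK13, kinases that phosphorylate the carboxyl-terminal domain of RNA polymerase II. The 95 members were chosen by 3 conditions in KURAMOCHI. Mean expression with the vehicle DMSO was at least 5 FPKM, both libraries at 50 nM lay above both DMSO libraries, and the mean at 50 nM was at least 25% above the DMSO mean. Rows named for microRNAs, snoRNAs and Cajal body RNAs were left out. The members made up 0.993% of the 9565 rows that had at least 5 FPKM in DMSO, out of 23621 gene rows in all.

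The study treated the established human ovarian cancer lines KURAMOCHI (Ku) and COV362 (Cov), both untransduced, with DMSO, 50 nM THZ1 or 250 nM THZ1 for 6 hr, with 2 biological replicates in each of the 3 groups per line. Polyadenylated RNA was sequenced, and RNA from equal cell numbers was mixed with ERCC standards, synthetic RNAs added in a known amount. FPKM, a measure of reads divided by transcript length and library size, were scaled by the authors to these standards, so that values follow RNA per cell and not the share of a library. The lines were grown in different media and their tables were scaled separately, and no test was made between them. Of 8 ovarian epithelial cancer markers, PAX8, KRT8, KRT18 and MSLN were above 10 FPKM in every library of both lines. In Ku EPCAM was at most 4.24, KRT7 at most 4.78 and MUC16 at most 0.17 FPKM, and in Cov WT1 was at most 0.74 and MUC16 at most 6.22 FPKM. Of 8 markers of other cells, the endothelial gene CDH5 reached 8.67 FPKM in Ku and 8 FPKM in Cov, the fibroblast gene COL1A1 reached 2.59 and 3.20 FPKM and the monocyte gene CD14 1.63 and 0.78 FPKM, while PTPRC, CD3E, PECAM1, DCN and PDGFRB stayed under 0.4 FPKM. Their part in the results was not tested. The files give no read counts, so the depth behind each value is unknown.

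Transcription by RNA polymerase II begins at the core promoter, where general factors such as TFIIB place the enzyme. CDK7, with cyclin H and MNAT1, acts at initiation, and P-TEFb, which is CDK9 with cyclin T1 or T2, releases the paused polymerase. Many short-lived messages, such as those of the immediate early genes, are made within minutes of a signal and are degraded quickly, so their levels follow synthesis closely. These roles are background for the groups of members below.

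The promoters below are of the 6 members that met the same 3 conditions in Cov cells as well (JUNB, NXF1, ID2, RBM15, SAT1 and ARGLU1), and of 4 further members that carry the core promoter letters TATAAA close to their start site (TNF, GADD45B, GTF2B and HES6). Each line holds the 100 bases before the RefSeq start site, on the gene's strand, from GRCh38.p14. Capitals mark the letters TATAAA or CCAAT on either strand.
JUNB: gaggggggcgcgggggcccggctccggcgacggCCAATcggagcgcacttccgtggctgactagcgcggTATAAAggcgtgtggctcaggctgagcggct
NXF1: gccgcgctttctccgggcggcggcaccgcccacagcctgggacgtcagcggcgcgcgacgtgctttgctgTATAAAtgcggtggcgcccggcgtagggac
ID2: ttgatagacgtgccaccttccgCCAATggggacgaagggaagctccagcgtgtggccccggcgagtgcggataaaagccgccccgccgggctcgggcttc
RBM15: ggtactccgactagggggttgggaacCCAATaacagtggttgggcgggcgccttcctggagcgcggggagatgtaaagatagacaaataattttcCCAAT
SAT1: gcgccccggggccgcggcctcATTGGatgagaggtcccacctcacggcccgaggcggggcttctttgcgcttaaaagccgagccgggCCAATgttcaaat
ARGLU1: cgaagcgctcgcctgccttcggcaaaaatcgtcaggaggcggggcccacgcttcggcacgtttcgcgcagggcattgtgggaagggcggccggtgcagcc
TNF: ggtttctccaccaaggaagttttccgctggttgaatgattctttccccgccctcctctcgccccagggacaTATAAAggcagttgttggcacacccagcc
GADD45B: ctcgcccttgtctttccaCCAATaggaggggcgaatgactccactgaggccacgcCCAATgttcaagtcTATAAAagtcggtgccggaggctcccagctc
GTF2B: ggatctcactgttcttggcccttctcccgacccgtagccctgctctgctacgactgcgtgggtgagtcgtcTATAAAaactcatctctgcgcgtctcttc
HES6: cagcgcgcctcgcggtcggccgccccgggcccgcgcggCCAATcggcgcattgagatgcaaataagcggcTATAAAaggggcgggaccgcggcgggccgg

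The JUNB stretch lies at chr19:12791386-12791485 on the plus strand and the NXF1 stretch at chr11:62805441-62805540 on the minus strand. ID2 was read at chr2:8681956-8682055, RBM15 at chr1:110339277-110339376 and SAT1 at chrX:23783073-23783172, all on the plus strand. ARGLU1 was read at chr13:106568138-106568237 on the minus strand. The TNF stretch is chr6:31575465-31575564 (plus), GADD45B is chr19:2476027-2476126 (plus), GTF2B is chr1:88891568-88891667 (minus) and HES6 is chr2:238240039-238240138 (minus).

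Promoter sequences of 250 bases before to 50 bases after the start were matched for 80 of the 95 members, and 8 motifs were searched on both strands. TATAAA occurred in 10 of the 80 members (12.5%), in 5.17% of the matched rows with at least 5 FPKM in Ku DMSO, and in 12% of all 27305 promoters. In 6 members TATAAA on the gene's strand began 29 to 31 bases before the start, where a TATA box is found: GADD45B, GTF2B, HES6, JUNB, NXF1 and TNF. A start between 33 and 25 bases before the start site, a window chosen after these positions were seen, was found in 7.5% of the member promoters, 1.52% of those of the expressed rows and 2.35% of all promoters. CCAAT occurred in 47.5% of the members, 37.5% of the expressed rows and 35.7% of all promoters. GGGCGG was found in 72.5%, 72.6% and 44.6%, and CACGTG in 10%, 10.8% and 7.43%. Each of the other letters searched (TGACGTCA, TGACTCA with its reverse complement TGAGTCA, and GAANNTTC) occurred in 2 or 3 members. A match is a description of the letters and not of a bound site.

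The gene models of the members are described here beside those of the expressed rows. In GENCODE v44 lifted to GRCh37, 92 members were matched, of which 87 were protein coding. Their median gene length was 42194 bases, with quartiles of 14471 and 90319, beside a median of 31625 among expressed rows. The median largest exon number of a transcript was 8 in members and 10 in expressed rows. Members lay on 20 chromosomes, with the most, 12 each, on chromosomes 1 and 2. Their DMSO level in Ku had a median of 11.5 FPKM, against 22.8 FPKM over the expressed rows, and 40 members lay between 5 and 10 FPKM.

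The values that chose the members are given as a description. The ratio of the 50 nM mean to the DMSO mean in Ku had a median of 1.38 in the members, with a highest value of 11.2, and a median of 0.716 over the expressed rows. Only 5 members reached a ratio of 2 and 31 reached 1.5, so most stood modestly above DMSO. Of the expressed rows, 268 (2.80%) had both 50 nM libraries above both DMSO libraries. How many rows met the conditions rests on the scale and on single libraries. With equal-median or median-of-ratios scaling, which moved the median log2 fold change of all active genes at 50 nM in Ku from -0.40 to 0.10 or 0.02, 4001 or 2680 rows met them, and leaving out 1 library gave 69 to 173 rows. The median ratio between the 2 replicates of a member was 1.16 in DMSO and 1.10 at 50 nM. Just inside the threshold were LUZP1 at 1.253, ARRDC3 at 1.254 and FBXW7 at 1.254, and just outside were PLEC at 1.249, ZFYVE27 at 1.249 and CYB5A at 1.247.

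Some members were not stable between replicates or cannot be assigned to a single gene. RNA5SP244, a 5S ribosomal RNA pseudogene with the highest ratio (11.2), read 25.6 and 0.160 FPKM in DMSO and 25.7 and 263 FPKM at 50 nM. PCNA-AS1, antisense to the replication clamp gene PCNA, read 10.4 and 0.148 FPKM in DMSO and 17.5 and 22.2 FPKM at 50 nM. Replicates of these 2 rows and of RPL21 and BCYRN1 differed by more than 2-fold in at least 1 group, and in RPL21, a ribosomal protein gene with many pseudogene copies, 1 Cov library at 50 nM read 0.121 FPKM while the other read 213 FPKM. GATSL1, GATSL2, LIMS3L, MTRNR2L8 and LOC645166 have near-identical copies, so their reads could have been divided among copies. None of the 4 unstable rows was called in any comparison on the spike-in scale. Leaving them out therefore could not change the counts of called members on that scale, and it is no check of them.

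**Figure D1:**
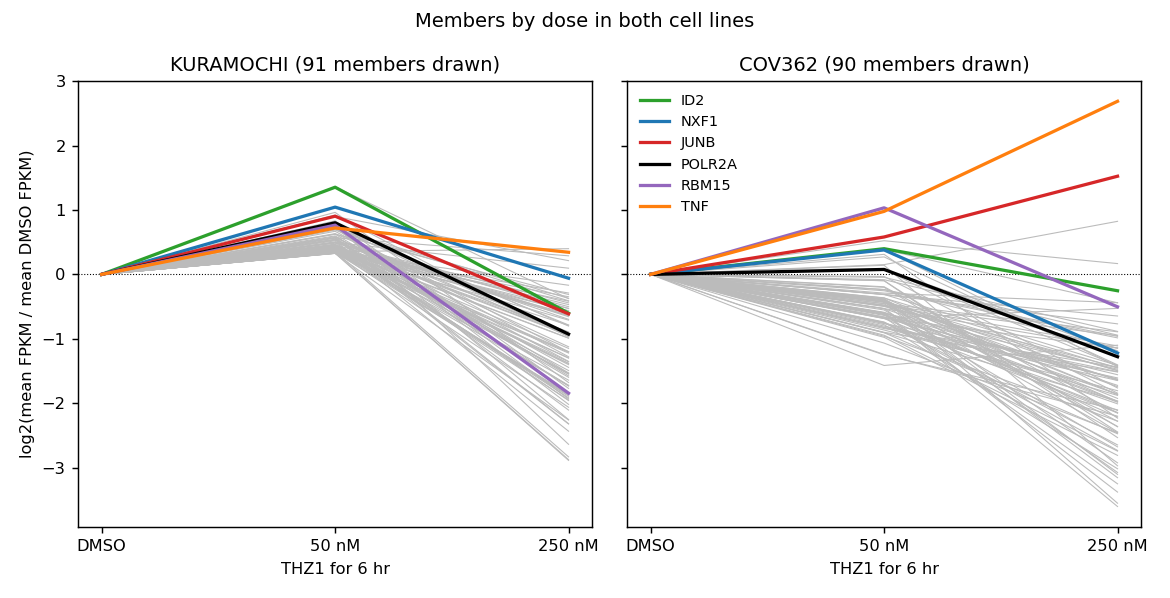
Mean FPKM of each member relative to its DMSO mean (log2 axis) at DMSO, 50 nM and 250 nM THZ1 in KURAMOCHI (left) and COV362 (right), 1 line per member with 6 genes in colour. The 4 rows with replicates over 2-fold apart, and members with a Cov DMSO mean under 1 FPKM on the right, are not drawn. Lines stand above 0 at 50 nM on the left because that chose them, and most lie below 0 at 250 nM in both lines on the deposited spike-in scale.

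At 250 nM in Ku, most of the members that stood above DMSO at 50 nM lay below it. Calls came from limma on log2(FPKM + 1) over 14251 active genes, those over 1 FPKM in at least 1 of 12 libraries. A call needed a log2 fold change larger than 0.5 in size together with a Benjamini-Hochberg adjusted p below 0.001. Against DMSO, 51 of 95 members were called lower and 0 higher, while 68.6% of all active genes were called lower and 0.0491% higher. At an unadjusted p under 0.05, 1 member was higher (0.182% of all active genes) and 81 were lower (89.6% of all). Both 250 nM libraries lay below both DMSO libraries in 84 members (background 95.9%), above them in 5 (background 0.414%), and overlapped them in 6. The median log2 fold change of the members was -0.95 and that of all active genes was -1.11. Over the rows with at least 5 FPKM in Ku DMSO, from which the members came, it was -1.35. The DMSO libraries also chose the members, so this contrast is not independent of the rule.

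The 5 members above DMSO at 250 nM in Ku were TNF, SAT1, RPL21, PAEP and MTRNR2L8. SAT1, an acetyltransferase that begins the breakdown of polyamines, read 32.3 and 25.5 FPKM in DMSO, 45.7 and 39.9 FPKM at 50 nM, and 37.5 and 33 FPKM at 250 nM. PAEP, the secreted glycoprotein glycodelin, read 6.80 and 6.28 FPKM in DMSO and 7.02 and 6.96 FPKM at 250 nM. These groups did not overlap, but none of the 5 members passed the test. SAT1, PAEP and MTRNR2L8 fall outside the rule for named genes and were named after their values were seen.

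By log2 fold change of FPKM + 1, the 5 lowest members at 250 nM in Ku were ARRDC3, BRD2, EGLN3, PLEKHO2 and GTF3C4. By ratio of means, CCRN4L (0.161) and CCNT1 (0.185) lay below BRD2 (0.201) and GTF3C4 (0.200). ARRDC3, an arrestin-domain adaptor of receptor turnover, read 12.7 and 12.1 FPKM in DMSO, 15.9 and 15.2 FPKM at 50 nM, and 1.75 and 1.63 FPKM at 250 nM. Its log2 fold change at 250 nM was -2.32 ± 0.11 (SE, limma adjusted p = 1.18e-05). EGLN3, an oxygen-sensing prolyl hydroxylase, read 11.1 and 9.16 FPKM in DMSO, 13.1 and 12.5 FPKM at 50 nM, and 1.44 and 1.30 FPKM at 250 nM. PLEKHO2, a pleckstrin homology domain protein, had a log2 fold change of -2.21 ± 0.15 (limma adjusted p = 2.90e-05), and EGLN3 one of -2.23 ± 0.14 (limma adjusted p = 2.30e-05). In all of these the 250 nM libraries lay far below both other groups on the spike-in scale, and with equal-median scaling only PLEKHO2 of the 5 was called.

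Between 50 nM and 250 nM in Ku, 73 of 95 members were called lower and 0 higher by limma, and 36.0% of all active genes were called lower and 0.0421% higher. At an unadjusted p under 0.05, 0 members were higher (0.309% of all active genes) and 87 were lower (73.9% of all). Both 250 nM libraries lay below both 50 nM libraries in 92 members (background 87.7%). The median log2 difference was -1.52 in the members, -0.62 over all active genes and -0.80 over the rows expressed in Ku. The 50 nM libraries chose the members for being high, so the larger share of calls is in part fixed by the rule and is not read as a property of these genes. With any 1 of the 4 libraries compared left out, the count was between 21 (first 50 nM library) and 35 (second 50 nM library), with 22 and 31 for the 250 nM libraries, while 791 to 1603 of all active genes were called lower in place of 5132.

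The calls at 250 nM rest on the spike-in scale. When libraries were instead scaled to an equal median FPKM, the median of all active genes at 250 nM in Ku moved from -1.11 to 0.29, 1 member was called lower and 43 were called higher, beside 11.6% and 26.9% of all active genes. With median-of-ratios scaling the median of all genes was 0.00, with 7 members called lower and 25 higher, beside 19% and 11.1% of all. Without the first or second 250 nM library on the spike-in scale, 25 or 32 members were called lower in place of 51, and 6085 or 6319 of all active genes in place of 9774. Directions at 250 nM are given on the scale of RNA per cell, and a gene can lose RNA per cell while it gains in share of the library.

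In Cov cells no library had a part in choosing the members. At 50 nM, 21 of 95 members were called lower and 1 higher by limma, against 70.5% of all active genes called lower and 0.0772% higher. Both 50 nM libraries lay above both DMSO libraries in 11 members, or 11.6% (background 0.674%), below them in 72, or 75.8% (background 95.7%), and overlapped them in 12. The median log2 fold change was -0.43 in the members, -0.85 over all active genes and -0.91 over the rows expressed in Ku. Of the 95 members, 88 lay above the median of all active genes. The median ratio of means was 0.730 in the members and 0.501 over the rows expressed in Ku, and 17 members had a ratio over 1. Most members thus stood below DMSO in Cov at the dose that placed them above it in Ku, and less far below than the typical gene.

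The count of 21 lower members was sensitive to single libraries. Without the first or the second Cov DMSO library the count was 3 or 2, and with the replicate number as a block it was 7, while 6899, 4314 and 7266 of all active genes were called lower in place of 10042. With median scaling or median-of-ratios scaling 0 members were called lower and 6 or 10 were called higher, beside 0.147% or 0.772% of all active genes lower and 0.0842% or 0.14% higher, and 90 or 89 members had a positive log2 fold change. At an adjusted p under 0.05, 37 members were lower (background 82.0%) and 4 higher (background 0.225%). The single member called higher at the stricter threshold was RBM15.

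**Figure D2:**
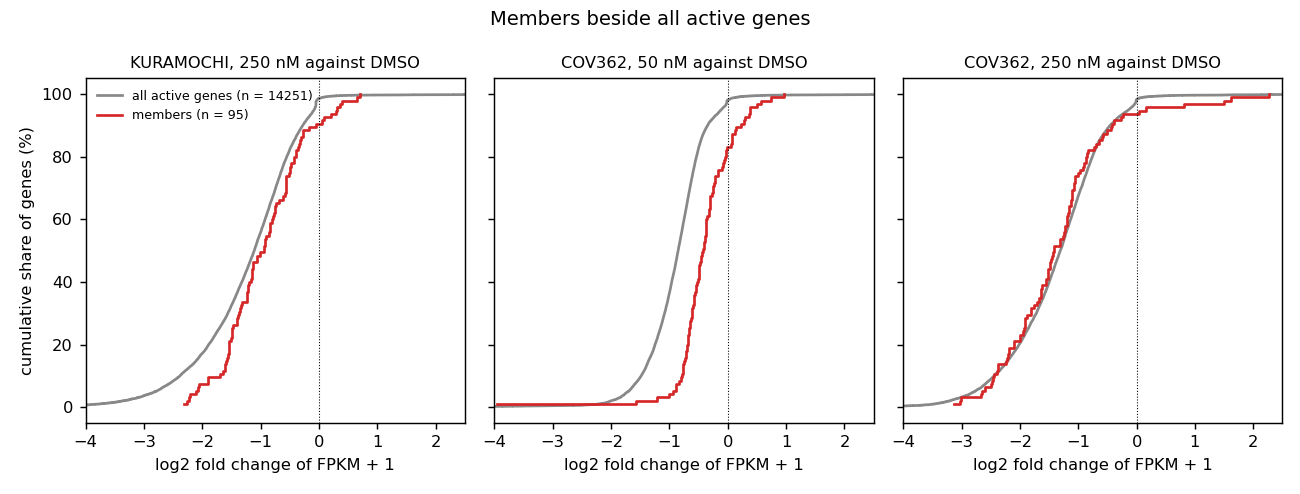
Cumulative share of genes (vertical axis, %) by log2 fold change of FPKM + 1 for the 95 members and all 14251 active genes, on the deposited spike-in scale. The member curve lies to the right of the other at 50 nM in COV362, where medians were -0.43 and -0.85, and close to it at 250 nM in COV362, where medians were -1.42 and -1.31.

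The same 3 conditions applied to the Cov table gave 9 of 10097 expressed rows (0.0891%). Of these 9, 6 (66.7%) were members, which is 6.32% of the members: ARGLU1, ID2, JUNB, NXF1, RBM15 and SAT1. The other 3 rows were CBWD5, IER5L and TMEM183A. Of the 95 members, 84 had at least 5 FPKM in Cov DMSO and 2, PAEP and PCNA-AS1, were under 1 FPKM there.

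RBM15 encodes an RNA-binding protein that brings the N6-adenosine methylation complex to RNA. Its Ku libraries read 8.93 and 7.44 FPKM in DMSO, 14.2 and 13.6 FPKM at 50 nM, and 1.86 and 2.70 FPKM at 250 nM. Its Cov libraries read 9.10 and 10.4 FPKM in DMSO, 19.4 and 20.4 FPKM at 50 nM, and 6.90 and 6.85 FPKM at 250 nM. On the spike-in scale RBM15 stood highest at 50 nM and lowest at 250 nM in both lines, without overlap between groups. The rise in Cov was 0.96 ± 0.10 on the log2 scale (SE, limma adjusted p = 8.84e-05), and the difference at 250 nM, -0.45 ± 0.10, was not called (limma adjusted p = 0.00327) and turned to 1.39 or 0.99 with equal-median or median-of-ratios scaling.

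NXF1 is the main receptor that carries messenger RNA out of the nucleus. In Ku it read 55.3 and 49.3 FPKM in DMSO, 111 and 104 FPKM at 50 nM, and 50.8 and 49.5 FPKM at 250 nM. In Cov it read 39.6 and 43.3 FPKM in DMSO, 54.2 and 53.6 FPKM at 50 nM, and 18.1 and 17.5 FPKM at 250 nM. At 250 nM the Ku libraries lay within the range of DMSO (log2 fold change -0.06 ± 0.08, limma adjusted p = 0.499), whereas the Cov libraries lay well below it (-1.17 ± 0.08, limma adjusted p = 6.62e-06). With equal-median or median-of-ratios scaling both turned positive, at 1.89 or 1.37 in Ku and 0.83 or 0.38 in Cov. The higher level at 50 nM in Cov was 0.37 ± 0.08 on the log2 scale and was not called (limma adjusted p = 0.00360).

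ID2, an inhibitor of basic helix-loop-helix transcription factors, had the largest ratio among stable members besides CTH. It read 18.8 and 15.9 FPKM in Ku DMSO, 46.4 and 42.3 FPKM at 50 nM, and 11.9 and 11 FPKM at 250 nM. The Cov libraries read 13.7 and 16.1 FPKM in DMSO, 19.8 and 19.5 FPKM at 50 nM, and 13.3 and 11.7 FPKM at 250 nM. The Cov libraries at 50 nM lay above DMSO, with a log2 fold change of 0.38 ± 0.11 that was not called (limma adjusted p = 0.0122). CTH, the enzyme that makes cysteine from cystathionine, read 5.16 and 4.91 FPKM in Ku DMSO and 13.9 and 12 FPKM at 50 nM, but 4.28 and 4.97 FPKM in Cov DMSO and 3.98 and 3.20 FPKM at 50 nM. On the spike-in scale CTH stood above DMSO in Ku, by the rule, and below it in Cov. The Cov log2 fold change at 50 nM, -0.30 ± 0.12, was not called (limma adjusted p = 0.0532).

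SAT1 and ARGLU1, named here because they met the conditions in Cov, lay above DMSO at 50 nM in both lines. SAT1 read 28.8 and 32.3 FPKM in Cov DMSO, 39.7 and 48.0 FPKM at 50 nM, and 35.8 and 32.8 FPKM at 250 nM. ARGLU1, an arginine- and glutamate-rich nuclear protein with a part in splicing, read 58.1 and 54.2 FPKM in Ku DMSO, 81.3 and 72.7 FPKM at 50 nM, and 35.4 and 43.9 FPKM at 250 nM. In Cov, ARGLU1 read 48.1 and 54.2 FPKM in DMSO, 64.4 and 69.2 FPKM at 50 nM, and 38.3 and 37.0 FPKM at 250 nM. SAT1 had libraries above DMSO at both doses in both lines, and ARGLU1 at 50 nM only.

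**Figure D3:**
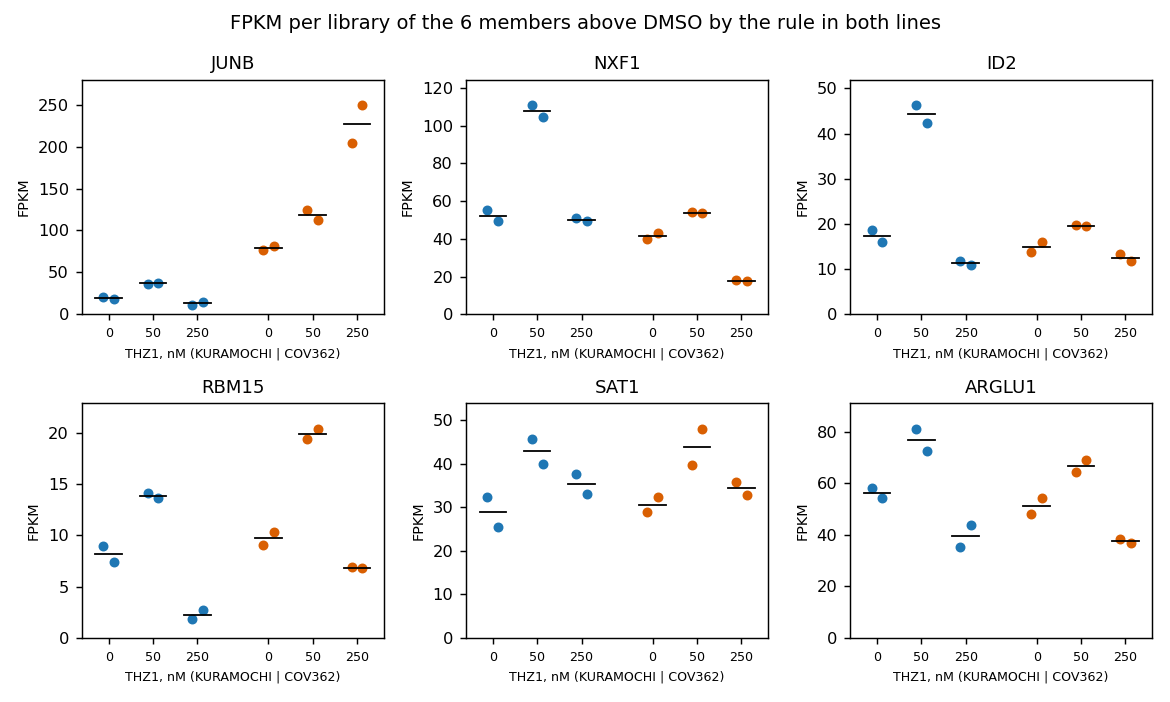
FPKM (linear axis from 0) of JUNB, NXF1, ID2, RBM15, SAT1 and ARGLU1 against THZ1 dose in KURAMOCHI (blue) and COV362 (orange), 1 point per library and a bar at the mean of 2. Points at 50 nM lie above DMSO in every panel, and JUNB at 250 nM is the highest group in COV362 and the lowest in KURAMOCHI.

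JUNB, IER2 and KLF10 were the members among 25 active immediate early genes. JUNB, a subunit of the AP-1 transcription factor, read 20.9 and 18.4 FPKM in Ku DMSO, 36.0 and 37.5 FPKM at 50 nM, and 11 and 14.7 FPKM at 250 nM. The Cov libraries read 76.2 and 82.1 FPKM in DMSO, 124 and 112 FPKM at 50 nM, and 205 and 250 FPKM at 250 nM. JUNB thus stood above DMSO at 50 nM in both lines, and at 250 nM its libraries lay below DMSO in Ku and above it in Cov. The Ku difference at 250 nM, -0.59 ± 0.14 on the log2 scale, was not called (limma adjusted p = 0.00782) and was 1.28 or 0.79 with equal-median or median-of-ratios scaling. The Cov log2 fold change was 0.57 ± 0.12 at 50 nM, not called (limma adjusted p = 0.00227), and 1.51 ± 0.12 at 250 nM (limma adjusted p = 1.02e-05).

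IER2, a nuclear immediate early protein, read 17.8 and 17.0 FPKM in Ku DMSO, 22.4 and 24.6 FPKM at 50 nM, and 7.85 and 10.9 FPKM at 250 nM. The Cov libraries read 74.7 and 80.1 FPKM in DMSO, 91.2 and 80.7 FPKM at 50 nM, and 129 and 145 FPKM at 250 nM. As for JUNB, the 250 nM libraries lay below DMSO in Ku and above it in Cov, where the log2 fold change was 0.81 ± 0.10 (limma adjusted p = 1.29e-04). Without the first Cov DMSO library IER2 was not called. The Ku difference at 250 nM, -0.84 ± 0.15, was not called (limma adjusted p = 0.00221) and was 1.00 or 0.51 under the same other scalings. KLF10, a zinc finger factor induced by TGF-beta, read 12.4 and 10.8 FPKM in Ku DMSO, 16.1 and 14.9 FPKM at 50 nM, and 3.05 and 3.20 FPKM at 250 nM, and in Cov it lay below DMSO at both doses.

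The median log2 fold change of the immediate early list, members included, was negative at both doses in both lines. The same held for all active genes, on the spike-in scale. By limma, 7 of the list's 25 active genes were called lower at 50 nM in Ku (background 11.3%). At 250 nM in Ku 16 were called lower (background 68.6%), and at 50 nM in Cov 16 (background 70.5%). At 250 nM in Cov, 18 were called lower and 5 higher, against 84.0% and 0.105% of all active genes. The 5 higher genes were the members JUNB and IER2 with EGR1, IER3 and ZFP36. With equal-median scaling the list's median log2 fold change was positive at 50 nM in both lines (0.17 in Ku and 0.28 in Cov) and at 250 nM in Cov (0.40), and it was negative at 250 nM in Ku (-0.14). With median-of-ratios scaling it was 0.04 in Ku and 0.14 in Cov at 50 nM, and -0.61 in Ku and -0.05 in Cov at 250 nM.

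TNF, the inflammatory cytokine, was the member with the largest log2 fold change of FPKM + 1 at 250 nM in Cov. It read 10.6 and 8.72 FPKM in Ku DMSO, 14.7 and 17.1 FPKM at 50 nM, and 10.7 and 13.8 FPKM at 250 nM. In Cov it read 2.69 and 2.09 FPKM in DMSO, 3.85 and 5.56 FPKM at 50 nM, and 15.8 and 15.0 FPKM at 250 nM. Every treated library in either line lay above both DMSO libraries of that line. At 250 nM in Cov its log2 fold change was 2.28 ± 0.16 (limma adjusted p = 7.48e-06), which on the log2(FPKM + 1) scale understates the ratio of means of 6.44. By ratio of means PCNA-AS1, under 1 FPKM in Cov DMSO, was higher at 36.6.

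The members were sorted into 7 groups by what their products do, after the member names were known, and the groups get no test. The transcription machinery group held 7 genes: POLR2A, GTF2B, GTF3C4, CCNH, CCNT1, CCNT2 and BRD2. In Ku its median ratio of means to DMSO was 1.45 for the low dose and 0.301 for the high dose, and in Cov 0.763 and 0.184. By limma 6 of the 7 were called lower at 250 nM in Ku (background 68.6%), 1 (CCNH) at 50 nM in Cov (background 70.5%) and 7 at 250 nM in Cov (background 84.0%), on the spike-in scale.

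POLR2A, the catalytic largest subunit of RNA polymerase II, was the most abundant of these in Ku DMSO. It read 133 and 118 FPKM in Ku DMSO, 223 and 215 FPKM at 50 nM, and 61.8 and 70.2 FPKM at 250 nM. In Cov it read 54.1 and 60.0 FPKM in DMSO, 61.4 and 58.9 FPKM at 50 nM, and 22.3 and 24.8 FPKM at 250 nM. In Ku the 50 nM and DMSO groups did not overlap, as the rule required. In Cov they overlapped, with a log2 fold change of 0.08 ± 0.09 (limma adjusted p = 0.456). At 250 nM it was -0.92 ± 0.09 in Ku (limma adjusted p = 1.17e-04) and -1.24 ± 0.09 in Cov (limma adjusted p = 9.24e-06), and both turned positive under either other scaling, from 0.33 to 1.04.

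Of the 13 polymerase II subunit genes, all with at least 5 FPKM in Ku DMSO, POLR2A was the only gene with a ratio over 1 at 50 nM, and the list's median ratio was 0.877. The rule chose POLR2A by this ratio, so this is a description. POLR2B, the second largest subunit, read 79.1 and 68.6 FPKM in Ku DMSO and 71.1 and 64.0 FPKM at 50 nM. At 50 nM in Cov, 10 of the 13 were called lower by limma (background 70.5%), and POLR2A was the only one with a ratio over 1 there as well, at 1.05, with overlapping groups. These ratios are on the spike-in scale, and with equal-median scaling 11 of the 13 subunits in Ku and 12 in Cov were positive at 50 nM.

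**Figure D4:**
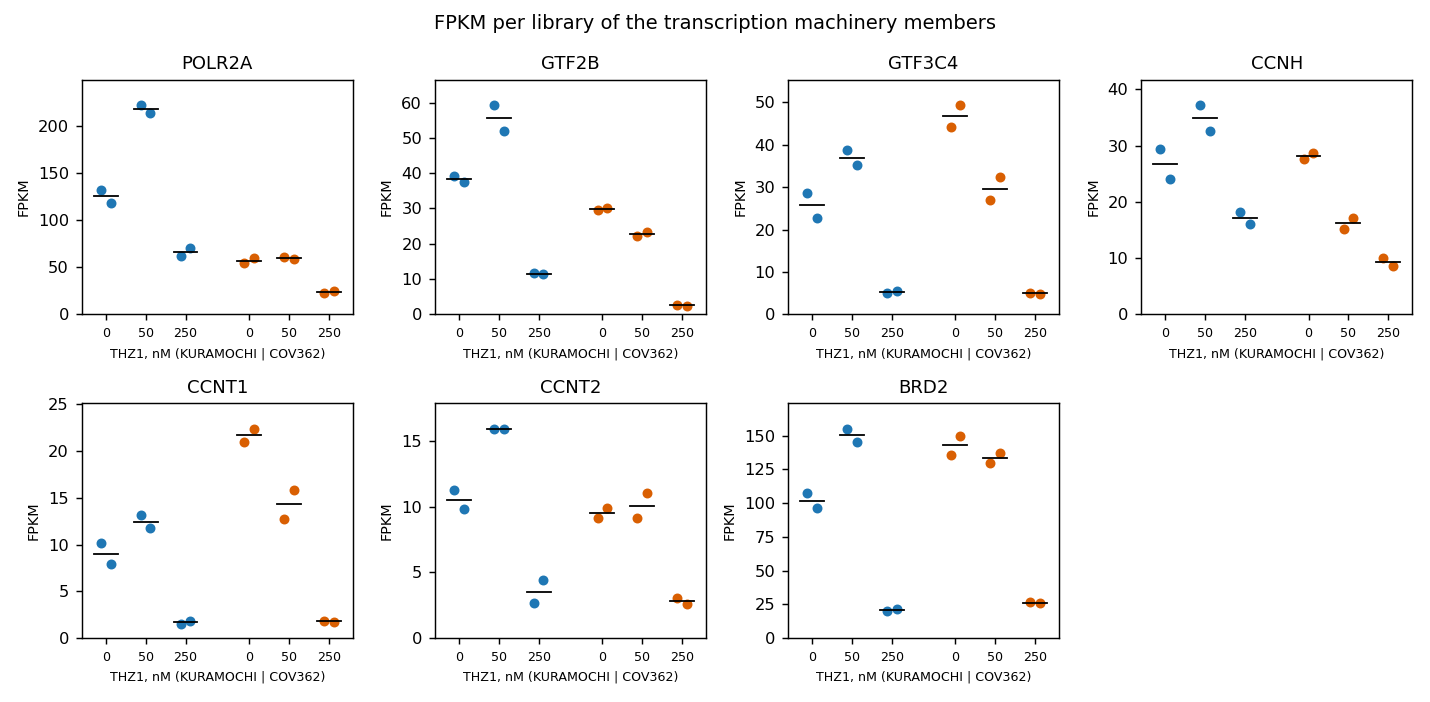
FPKM (linear axis from 0) of the 7 transcription machinery members against THZ1 dose in KURAMOCHI (blue) and COV362 (orange), 1 point per library and a bar at the mean of 2. In KURAMOCHI all 7 are highest at 50 nM, by the rule, and lowest at 250 nM, and in COV362 the lowest group is also 250 nM for all 7.

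CCNT1, CCNT2 and CCNH encode cyclin T1, cyclin T2 and cyclin H, the partners of CDK9 and CDK7. CCNT1 read 10.1 and 7.89 FPKM in Ku DMSO, 13.2 and 11.7 FPKM at 50 nM, and 1.5 and 1.83 FPKM at 250 nM, a log2 fold change at 250 nM of -1.90 ± 0.16 (limma adjusted p = 6.94e-05) that was not called with equal-median (-0.36) or median-of-ratios scaling (-0.77). CCNT2 read 11.2 and 9.78 FPKM in Ku DMSO, 15.9 in both 50 nM libraries, and 2.67 and 4.38 FPKM at 250 nM. Its log2 fold change of -1.37 ± 0.20 passed narrowly (limma adjusted p = 7.21e-04) and was not called without 5 of the 6 Ku libraries, each left out in turn, nor with the replicate block, with only the 2 groups fitted, without the trend or without a minimum FPKM. It was 0.32 with equal-median and -0.13 with median-of-ratios scaling, so the call of CCNT2 rests on the settings used. Cyclin H read 29.3 and 24.1 FPKM in Ku DMSO, 37.2 and 32.6 FPKM at 50 nM, and 18.1 and 16.1 FPKM at 250 nM.

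The 3 cyclins belong to a list of 18 transcriptional kinases, cyclins and 7SK complex genes. By limma 3 of the 18 were called lower at 50 nM in Ku (background 11.3%), 17 at 250 nM in Ku (background 68.6%), 13 at 50 nM in Cov (background 70.5%) and 18 at 250 nM in Cov (background 84.0%). The 3 lower at 50 nM in Ku were HEXIM2, LARP7 and MEPCE, members of the 7SK complex that holds P-TEFb inactive. None of the 18 were called at 50 nM in either line under either other scaling, where the list's median log2 fold change was positive, from 0.03 to 0.53. At 250 nM with equal-median or median-of-ratios scaling, 5 or 7 were called lower and 3 or 1 higher in Ku, beside 11.6% or 19% lower and 26.9% or 11.1% higher of all active genes. In Cov 4 or 7 were called lower and 0 higher, beside 11.3% or 18.9% lower and 26.4% or 8.57% higher of all.

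BRD2, a bromodomain protein that binds acetylated histones, read 108 and 96.0 FPKM in Ku DMSO, 155 and 146 FPKM at 50 nM, and 19.6 and 21.2 FPKM at 250 nM, where its log2 fold change was -2.26 ± 0.08 (limma adjusted p = 7.44e-06). GTF3C4, a subunit of the polymerase III factor TFIIIC, read 28.7 and 22.8 FPKM in Ku DMSO, 38.7 and 35.2 FPKM at 50 nM, and 4.93 and 5.37 FPKM at 250 nM, where its log2 fold change was -2.11 ± 0.13 (limma adjusted p = 2.29e-05). GTF2B, which is TFIIB, read 39.2 and 37.5 FPKM in Ku DMSO, 59.4 and 51.9 FPKM at 50 nM, and 11.7 and 11.3 FPKM at 250 nM. Each of these 3 was highest at 50 nM and lowest at 250 nM in Ku.

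**Figure D5:**
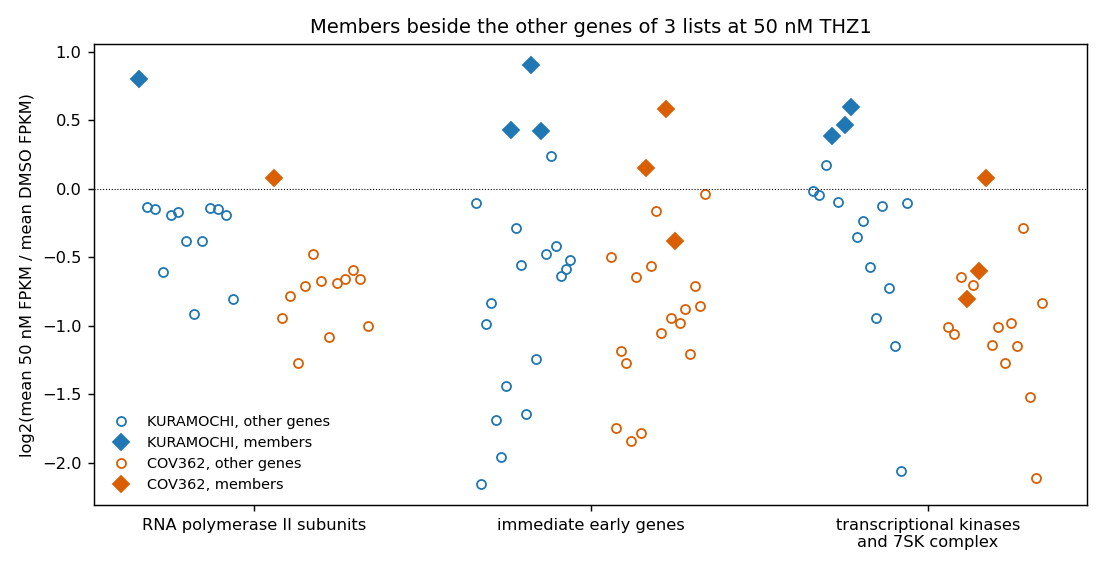
Ratio of the mean at 50 nM to the DMSO mean (log2 axis) for genes of 3 lists with at least 5 FPKM in DMSO, in KURAMOCHI (blue) and COV362 (orange), with members as filled diamonds and the other genes as open circles. The KURAMOCHI diamonds lie above 0 because the rule chose them, and 4 of them are also above 0 in COV362, JUNB at a ratio of 1.5, IER2 at 1.11, CCNT2 at 1.06 and POLR2A at 1.05.

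The group of RNA-binding, splicing and export genes held 13 members, with median ratios of 1.37 and 0.504 in Ku and 0.691 and 0.256 in Cov at 50 nM and 250 nM. At 50 nM in Cov, 3 of them (NXF1, RBM15 and ARGLU1) lay above DMSO in both libraries (background 0.674%) and 10 below (background 95.7%). THRAP3, a splicing and mRNA retention factor, read 79.0 and 70.0 FPKM in Ku DMSO, 122 and 109 FPKM at 50 nM, and 38.6 and 37.8 FPKM at 250 nM. CLK1, a kinase of SR splicing factors, read 47.5 and 41.9 FPKM in Ku DMSO, 63.8 and 54.8 FPKM at 50 nM, and 16.5 and 23.8 FPKM at 250 nM. Both lay below DMSO in Cov at 50 nM, with ratios of 0.661 and 0.582.

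Chromatin and transcription regulators numbered 12, with median ratios of 1.39 and 0.379 in Ku and 0.803 and 0.258 in Cov. ZMYM5, a zinc finger protein, read 15.9 and 13.6 FPKM in Ku DMSO, 30.3 and 27.2 FPKM at 50 nM, and 5.25 and 3.97 FPKM at 250 nM. In Cov it read 6.25 and 7.82 FPKM in DMSO, 8.26 and 9.18 FPKM at 50 nM, and 1.61 and 1.39 FPKM at 250 nM, the same order as in Ku. SUV420H1, a histone H4 lysine methyltransferase, read 35.8 and 32.0 FPKM in Ku DMSO and 59.2 and 55.4 FPKM at 50 nM, but had a ratio of 0.719 in Cov.

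Signals, receptors and feedback genes numbered 11, and metabolic genes 9. In the first group HBEGF, a ligand of the EGF receptor, read 29.5 and 28.2 FPKM in Ku DMSO, 49.2 and 44.8 FPKM at 50 nM, and 17.5 and 15.9 FPKM at 250 nM, and had a ratio of 0.693 at 50 nM in Cov. GADD45B, a stress-inducible growth arrest gene, read 16.7 and 14.3 FPKM in Ku DMSO, 21.5 and 20.8 FPKM at 50 nM, and 4.10 and 4.12 FPKM at 250 nM. The metabolic group had the mildest difference at 250 nM among the 6 groups of mostly coding genes in Ku, with a median ratio of 0.736, and 1 of its 9 members was called lower by limma, against 68.6% of all active genes, in a group made after the names were known. At 250 nM in Cov its median ratio was 0.365 and 8 of the 9 were called lower (background 84.0%). SAT1 and SMOX, which act in polyamine breakdown, and OAT, which links ornithine to glutamate, were among them. SMOX read 5.91 and 4.68 FPKM in Ku DMSO and 7.58 and 6.69 FPKM at 50 nM, and OAT read 47.4 and 42.0 FPKM and then 66.2 and 59.1 FPKM.

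The ubiquitin and oxygen-sensing group held 5 members and the noncoding and repeat-like group 7. MYLIP, a ubiquitin ligase for the LDL receptor, read 16.6 and 14.7 FPKM in Ku DMSO and 21.8 and 21.2 FPKM at 50 nM, and in Cov 3.05 and 2.76 FPKM and then 3.91 and 3.66 FPKM. FBXW7, the substrate receptor of a ubiquitin ligase for MYC and cyclin E, read 8.59 and 8.13 FPKM in Ku DMSO, 11 and 9.97 FPKM at 50 nM, and 2.68 and 3.75 FPKM at 250 nM. LINC00662, a long noncoding RNA, read 5.01 and 5.02 FPKM in Ku DMSO and 10.1 and 8.89 FPKM at 50 nM, and in Cov 4.90 and 5.07 FPKM and then 5.85 and 6.18 FPKM. LOC541471, an abundant noncoding RNA, read 126 and 118 FPKM in Ku DMSO and 168 and 154 FPKM at 50 nM. All of these lay above DMSO at 50 nM in Ku by the rule. In Cov, MYLIP and LINC00662 did so as well, and FBXW7 and LOC541471 did not.

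Single members stood among large lists that otherwise lay near or below DMSO. FANCA, a subunit of the Fanconi anemia repair complex, was the only one of 17 expressed long DNA repair genes with a ratio over 1 at 50 nM in Ku. It read 11.9 and 9.93 FPKM in DMSO, 18.0 and 18.6 FPKM at 50 nM, and 5.25 and 6.05 FPKM at 250 nM. The rule chose FANCA by its ratio at 50 nM, so this is a description, and the ratios are on the spike-in scale. RPL21 was 1 member among 81 ribosomal protein genes, of which 24 had a ratio over 1 at 50 nM in Ku. NDUFC2, a complex I subunit, was 1 among 81 expressed respiratory chain genes, of which 20 had a ratio over 1. NDRG1, a stress-responsive gene, read 118 and 107 FPKM in Ku DMSO, 147 and 148 FPKM at 50 nM, and 66.8 and 63.4 FPKM at 250 nM. Of 25 lists, 7 held any member, and 83 of the 95 members were in none.

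By log2 fold change of FPKM + 1, the members lowest at 50 nM in Cov were the unstable rows RPL21 and RNA5SP244, followed by TUFT1, ABTB2 and EPPK1. By ratio of means RNA5SP244, at 0.762, lay above the member median of 0.730. TUFT1, a protein of developing enamel also present in epithelia, read 49.6 and 56.5 FPKM in Cov DMSO and 21.3 and 23.6 FPKM at 50 nM, but 22.9 and 17.0 FPKM in Ku DMSO and 30.4 and 28.7 FPKM at 50 nM. Its Cov log2 fold change was -1.21 ± 0.10 (limma adjusted p = 4.30e-05). EPPK1, a cytoskeletal linker of epithelial cells, fell by 0.93 ± 0.14 on the log2 scale in Cov (limma adjusted p = 4.55e-04) and was not called without either Cov DMSO library. Neither TUFT1 nor EPPK1 was called under either other scaling. ABTB2 read 24.8 and 26.2 FPKM in Cov DMSO and 12.5 and 11.9 FPKM at 50 nM. On the spike-in scale TUFT1, ABTB2 and EPPK1 lay below DMSO in Cov at the dose where the rule placed them above it in Ku.

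At 250 nM in Cov, 80 of 95 members (84.2%) were called lower and 3 (JUNB, TNF and IER2) higher by limma. Over all active genes 84.0% were called lower and 0.105% higher, so the share of lower members was near the background. Both 250 nM libraries lay above DMSO in 4 members (background 0.54%), the 3 above and SAT1, below DMSO in 88 (background 95.6%), and overlapped it in 3. The median log2 fold change was -1.42 in the members, -1.31 over all active genes and -1.48 over the rows expressed in Ku. Of the 95 members, 44 lay above the median of all active genes. On the equal-median scale, where the median of all genes was 0.31, 13 members were called lower and 24 higher, near the 11.3% and 26.4% of all active genes. JUNB, TNF and IER2 kept their higher calls under both other scalings.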

How the data were processed

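RNA was measured in 12 libraries, 2 per group in each of 2 lines. The authors deposited FPKM per gene and line, normalized to ERCC spike-in RNAs. Per the submitters' processing notes and the study's methods, reads were aligned to hg19 with HISAT and quantified with Cufflinks and Cuffnorm (versions not given in the sources used here). FPKM are not counts, so no count model was run, and depth and counting intervals are unknown. Cuffnorm values sit on a floor of about 0.0783 to 0.119 FPKM in Ku and 0.0890 to 0.110 FPKM in Cov. The 28 rows whose names read as dates were kept as named.

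Groups came from the sample labels. Rows other than the 92 ERCC rows with FPKM above 1 in at least 1 library (14251) were fitted as log2(FPKM + 1) with limma 3.58.1 in R 4.3.3, lmFit and eBayes with trend, all 6 libraries of a line in 1 fit, two-sided, with Benjamini-Hochberg adjustment over those genes. Calls needed a log2 fold change larger than 0.5 in size and an adjusted p below 0.001, the study's own thresholds, which it applied to a test on read counts. The step was tested on simulated data. An exact permutation test of 2 against 2 libraries cannot go below p = 0.333 and was not used. With 2 libraries a group, the p-values rest on the spread between replicates, pooled over the 3 groups of a line and moderated across genes.

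The members and lists were chosen with earlier results of these data known, and the 7 functional groups after the member names were seen. Named members were the 8 with the highest Ku ratio at 50 nM, the 5 highest in DMSO, those called higher at 250 nM in Ku or in Cov, the 5 lowest at 250 nM in Ku and at 50 nM in Cov, up to 3 per list, and the rows nearest the threshold. Other genes were named after their values were seen. The libraries are stranded, but whether counting used strand is not given in the sources used here, so PCNA-AS1 and PCNA cannot be told apart. Alternatives changed the pseudocount, the FPKM minimum, the scaling, the samples in the fit, the block, the trend, the thresholds, and each library in turn. The alternative without the 4 rows of unstable replicates was chosen after seeing the data.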

Additional observations from a re-analysis of the deposited data

Results flagged for a closer look

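JUNB and IER2 stood on opposite sides of DMSO in the 2 lines at 250 nM in every library, below it in Ku and above it in Cov, where the log2 fold changes were 1.51 and 0.81. In Ku they were -0.59 and -0.84, neither of them called, and both were positive under the other scalings. RPL21 had both 250 nM libraries above DMSO in Ku and both below in Cov, with a log2 fold change of -0.69 in Cov, and is one of the rows with unstable replicates. At 50 nM, 72 members lay above DMSO in both Ku libraries, as the rule required, and below DMSO in both Cov libraries, where 95.7% of all active genes lay below. These differences between the lines were not tested, because the tables were scaled separately.

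Of 127 small RNA rows with at least 5 FPKM in Ku DMSO, which the rule left out, 3 met its other conditions. The ratio of the 50 nM mean to the DMSO mean was 9.58 for MIR3648, 4.61 for MIR621 and 1.83 for MIR5047. In MIR3648 and MIR621 a DMSO library read 0.175 or 0.137 FPKM while the other read 10.6 or 17.3 FPKM. MIR3648 in Cov read 0.185 and 0.198 FPKM in DMSO, 136 and 151 FPKM at 50 nM, and 283 and 481 FPKM at 250 nM.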

How the results depend on the processing

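With equal-median and median-of-ratios scaling, respectively, members called at 250 nM against DMSO in Ku were 1 and 7 lower with 43 and 25 higher (all active genes 11.6% and 19% lower, 26.9% and 11.1% higher). Members called at 250 nM against 50 nM were 21 and 37 lower with 1 and 0 higher (all 6.55% and 11.1%, 6.46% and 1.39%). In Cov they were 0 and 0 lower with 6 and 10 higher at 50 nM (all 0.147% and 0.772%, 0.0842% and 0.14%), and 13 and 19 lower with 24 and 15 higher at 250 nM (all 11.3% and 18.9%, 26.4% and 8.57%). Under these scales 4001 and 2680 rows met the rule. The log2 fold change at 250 nM in Ku became 1.04 and 0.53 for POLR2A, 1.89 and 1.37 for NXF1, 1.28 and 0.79 for JUNB, 1.00 and 0.51 for IER2 and, with equal medians, 0.32 for CCNT2. At 250 nM in Cov it became 1.39 and 0.99 for RBM15, 0.83 and 0.38 for NXF1 and 0.78 and 0.33 for POLR2A. The rule gave 31 rows at a ratio of 1.5 and 168 from a DMSO mean of 1 FPKM. Without a minimum FPKM, 41 members were called lower at 250 nM against 50 nM in Ku and 12 lower at 50 nM in Cov, with 1901 and 8286 of all 23621 rows. At 50 nM in Cov an adjusted p under 0.05 gave 37 lower and 4 higher, and a log2 fold change beyond 1 gave 2 lower and 0 higher. The cause of these shifts was not tested. Leaving out 1 library gave 25 to 44 members lower at 250 nM in Ku, with 25 and 32 without the first and second 250 nM library. It gave 21 to 62 lower against 50 nM, with 21 and 35 without the 50 nM libraries and 22 and 31 without the 250 nM libraries. In Cov it gave 2 to 26 lower and 1 to 2 higher at 50 nM, with 2 higher without the first 50 nM library, and 71 to 82 lower and 2 to 4 higher at 250 nM. The rule gave 173 or 71 rows without the first or second Ku DMSO library, and 69 or 148 without the first or second 50 nM library, a range of 69 to 173. Gene by gene, same-numbered replicates did not deviate together, with correlations from -0.0703 to 0.0282. A shift shared by all genes of a library would not show in these correlations, so they do not settle whether the numbers pair the samples. A replicate block gave 48 lower at 250 nM in Ku (9485 of all active genes), 69 lower against 50 nM (4952), 7 lower (7266) and 1 higher (8) at 50 nM in Cov, and 79 lower (11202) and 3 higher (10) at 250 nM in Cov. Of the log2 fold changes of named genes under all alternatives, 332 kept direction and call, 29 lost the call, 6 gained it and 16 turned. NXF1 at 250 nM in Ku, not called, ran from -0.138 to 0.0251 with 1 library left out and turned without the first DMSO library.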
